A study of Homo sapiens with 6 samples.

Results

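The 10 mRNAs described here encode giant linker proteins of the cytoskeleton: SYNE1, SYNE2, DST, MACF1, PLEC, UTRN, SPTAN1, SPTBN1, AHNAK and FLNA. They were taken by gene symbol from a table of 23013 genes, and all 10 passed the filter on low values that left 16513 genes for testing. The table comes from native RNA immunoprecipitation and sequencing (RIP-seq) on nuclei of HCT116, a human colorectal cancer cell line, with an antibody against ORC1, the largest protein of the complex that licenses origins of DNA replication. All cells were untreated and asynchronous. The study compared 3 immunoprecipitates (ORC1 IP) with 3 inputs of nuclear RNA taken without antibody, each numbered as RIP replicate 1, 2 or 3, to find RNAs that come down with ORC1. The study reported that its control IgG brought down no detectable RNA, and it repeated the RIP with Flag-tagged ORC1. No library from a control antibody was analysed here, so RNA held by beads or antibody alone could not be subtracted. The labels do not say whether the replicates came from separate cultures, and p-values measure the spread between these libraries.

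Linker proteins of this class join one filament system to another or to a membrane. Nesprins (SYNE1 and SYNE2) sit in the outer nuclear membrane and tie the nucleus to actin, spectraplakins (DST and MACF1) bridge actin and microtubules, and plectin (PLEC) anchors intermediate filaments. Utrophin (UTRN), the autosomal relative of dystrophin, joins actin to the dystroglycan complex, the spectrins SPTAN1 and SPTBN1 pair into the tetramers under the plasma membrane, filamin A (FLNA) crosslinks actin, and AHNAK is a scaffold at membranes and cell contacts. Most of these proteins are strings of repeats, such as spectrin repeats or immunoglobulin-like domains, and their mRNAs are among the longest that epithelial cells make.

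Reads on genes ranged from 13703033 to 17248924 in inputs and from 25134156 to 36008733 in ORC1 IPs. Each of the 10 mRNAs had between 138 and 443065 reads per library. ORC1 IP replicate 2 was the lowest ORC1 IP for all 10 mRNAs, and the counts of calls and the test of each of the 10 are also given without it. Leaving out the lowest ORC1 IP must raise the fold change of each of the 10. The p-values of those fits are therefore no independent evidence of enrichment. The same holds for any other gene whose lowest ORC1 IP was replicate 2. Epithelial identity was checked with 8 markers, of which 6 were tested. In inputs EPCAM had 1990.5 to 3499.9 and KRT8 had 22866 to 72708 normalised counts, whereas VIL1, below the filter, had 2.11 to 6.30. Of 6 fibroblast and muscle markers 3 were analysed, with COL1A1 at 161 to 298, DES at 15.8 to 50.3 and ACTA2 at 25.2 to 39.0 in inputs. The 4 leukocyte markers were not analysed here.

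GAA repeats were a feature of interest in the study, which found them common in RNAs bound by ORC1. From crosslink positions and binding in vitro it concluded that ORC1 does not bind RNA through them. Here the longest uninterrupted tandem run of the letters GAA was searched on the sense strand of each transcript. Coding windows of 60 bases around that run are shown for SYNE2, DST and UTRN, which had long runs, and for FLNA and AHNAK, which had short ones. In AHNAK the run was a single GAA. Where runs tied in length, the first whose window fitted inside an exon was used. All lie in coding exons of the canonical transcript in GENCODE v44 (GRCh38), are written 5′ to 3′ on the coding strand, and carry the run in capitals.
SYNE2, exon 41, chr14:64025164-64025223, plus strand: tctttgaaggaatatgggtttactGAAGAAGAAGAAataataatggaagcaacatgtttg
DST, exon 18, chr6:56640169-56640228, minus strand: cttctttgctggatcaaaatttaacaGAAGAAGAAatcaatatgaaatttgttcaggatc
UTRN, exon 11, chr6:144437632-144437691, plus strand: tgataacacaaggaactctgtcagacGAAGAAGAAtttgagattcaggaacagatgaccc
FLNA, exon 2, chrX:154371091-154371150, minus strand: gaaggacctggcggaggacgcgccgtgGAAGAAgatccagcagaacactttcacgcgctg
AHNAK, exon 3, chr11:62535952-62536011, minus strand: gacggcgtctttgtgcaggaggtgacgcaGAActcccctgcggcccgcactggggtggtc
The windows shown also differ in base composition, with 30% GC in DST, 31.7% in SYNE2 and 41.7% in UTRN against 61.7% in FLNA and 68.3% in AHNAK. Windows with runs of 2 units in SPTAN1, SPTBN1 and MACF1, not printed here, had 38.3%, 43.3% and 45%. The contrast therefore rests on the windows printed. Over its whole longest transcript AHNAK had 49.3% GC.

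In replicates 1 and 3, every one of the 10 mRNAs was more abundant in the ORC1 IP than in the same-numbered input. The median folds were 10.4 and 9.75, and 49.8% and 52.1% of all genes were higher. In replicate 2, 4 of the 10 were higher, beside 50.3% of all genes, and the median fold was 0.451. As log2 this median was -1.15, beside 0.23 for protein-coding genes with transcripts of at least 8229 nt. Values per replicate follow the labelled numbers, but deviations from the group means correlated at -0.24 between input 2 and ORC1 IP 2, and at 0.50 between input 2 and ORC1 IP 1. ORC1 IP 2 was above input 1 for 7 of the 10 mRNAs, all but PLEC, SPTBN1 and FLNA. ORC1 IP 1 was above input 2 for all but FLNA, with 154157 against 86046 normalised counts for PLEC. Input 1 was the lowest input for 7 of the 10, whose replicate 1 folds would be lower against another input. Over the 3 replicates the median log2 fold change was 1.79, beside 0.01 over all genes tested, and 9 of the 10 values were positive, beside 50.7% of all genes. Of protein-coding genes with transcripts of at least 8229 nt, 79.7% were positive, with a median of 0.60. Only UTRN passed the test across all genes (limma on log2(normalised count + 1), Benjamini-Hochberg adjusted p under 0.05), where 2.28% of all genes were called higher and 1.42% lower. None of the 10 was called lower.

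DST, SYNE1, SYNE2 and UTRN were higher in each of the 3 replicates, beside 19.8% of all genes, and in these 4 all ORC1 IPs lay above all inputs, beside 12.7% of all genes. The same 4 had an unadjusted p under 0.05 in limma, beside 12.2% of all genes called higher at that level. Of 1172 protein-coding genes with transcripts of at least 8229 nt, 328 were called higher at that level. Requiring a log2 fold change above 1 as well kept these 4 in limma, beside 10.9% of all genes. The study set these thresholds on DESeq2 results, so the limma count is not comparable with the study's own calls. The share of all genes at these thresholds in DESeq2 is not given here. DESeq2 as run here called 8 of the 10 higher at an adjusted p under 0.05, beside 7.67% of all genes. For 3 libraries against 3, the smallest p of a two-sided exact permutation test is 0.1, so complete separation of a single gene cannot pass by itself.

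When ORC1 IP replicate 2 was left out, 9 of the 10 mRNAs were called higher, all but FLNA, while 11.9% of all genes were. So were 37.7% of protein-coding genes with transcripts of at least 8229 nt, with a median log2 fold change of 0.83. The median of the 10 was then 2.92, and edgeR called 8 of the 10, beside 11.6% of all genes. The number called with all libraries also depended on the tool, with 3 in edgeR, where 2.57% of all genes were called higher, and 8 in DESeq2, where 7.67% were. Leaving out any other library left none of the 10 called in limma, where the share of all genes called higher was 2.44%, 0.291% and 0.0363% without inputs 1, 2 and 3, and 1.19% and 0.145% without ORC1 IPs 1 and 3. Scaling by total count called DST in place of UTRN (0.527% of all genes higher), scaling by upper quartile called both (2.51%), and a filter at a mean of 50 called neither (2.37%). With the replicate number as a block, limma called UTRN (2.62%) and edgeR called SYNE1 and UTRN (2.58%).

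**Figure D1:**
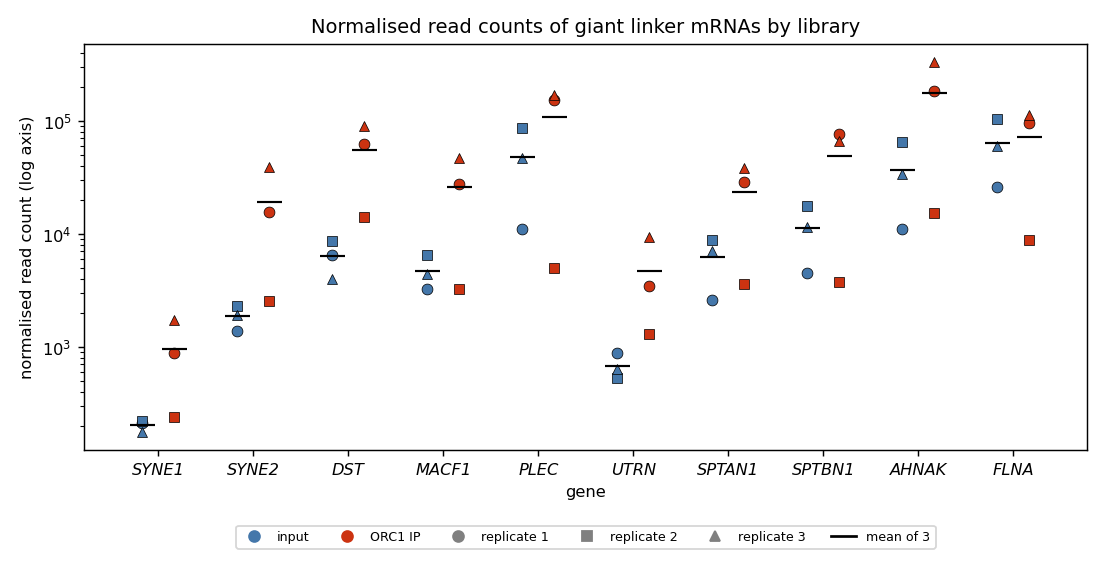
Normalised read counts of the 10 linker mRNAs (log axis) in 3 inputs (blue) and 3 ORC1 IPs (red), with marker shape giving the replicate and black lines the mean of 3 libraries. ORC1 IP replicate 2 (red squares) was the lowest ORC1 IP for all 10 mRNAs, and ORC1 IP replicate 3 (red triangles) the highest for 9.

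SYNE2 (ENSG00000054654, chromosome 14, 63761899 to 64226433, plus strand) encodes nesprin-2. It had 1366, 2299 and 1924 normalised counts in inputs 1, 2 and 3, against 15744, 2531 and 38998 in ORC1 IPs 1, 2 and 3. ORC1 IPs 1 and 3 were far above every input, whereas ORC1 IP 2 lay just above input 2. The corresponding folds were 11.5, 1.10 and 20.3. SYNE2 had a log2 fold change of 2.67 ± 0.79 (SE, n = 3; limma adjusted p = 0.0775), which reached 3.77 without ORC1 IP replicate 2 (limma adjusted p = 0.000285).

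SYNE1 (ENSG00000131018, chromosome 6, 152121687 to 152637801, minus strand) encodes nesprin-1 and was the least abundant linker mRNA. It had 211, 217 and 177 normalised counts in inputs against 885, 240.4 and 1742 in ORC1 IPs 1, 2 and 3. Inputs were tight, at 202 ± 21.9 (SD, n = 3), and ORC1 IP 2 exceeded the highest of them by a small margin. The log2 fold change was 1.83 ± 0.58 (SE, n = 3; limma adjusted p = 0.0919). SYNE1 passed in edgeR (adjusted p = 0.0409), and in limma without ORC1 IP replicate 2 (log2 fold change 2.62, adjusted p = 0.000843).

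Of the spectraplakins, DST (ENSG00000151914, chromosome 6, 56457987 to 56954830, minus strand) encodes dystonin and had the highest log2 fold change of the 10, at 2.83 ± 0.81 (SE, n = 3; limma adjusted p = 0.0705). Its normalised counts were 6501, 8609.6 and 3971 in inputs against 63009, 14227 and 90108 in ORC1 IPs. Even the lowest ORC1 IP was above the highest input. In replicates 1, 2 and 3 the folds were 9.69, 1.65 and 22.7. DST passed with total count scaling (limma adjusted p = 0.0363) and with upper quartile scaling (0.0449), and reached 3.64 without ORC1 IP replicate 2 (limma adjusted p = 0.00047).

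MACF1 (ENSG00000127603, chromosome 1, 39081316 to 39487177, plus strand) encodes the other spectraplakin, microtubule-actin crosslinking factor 1. It had 3267, 6485 and 4444 normalised counts in inputs against 27519.7, 3276 and 46806 in ORC1 IPs. ORC1 IP 2 fell among the inputs, next to input 1, and below the input of its own replicate. Folds were 8.42 and 10.53 in replicates 1 and 3 and 0.505 in replicate 2. The log2 fold change of 1.83 ± 0.85 (SE, n = 3) did not pass (limma adjusted p = 0.237), and without ORC1 IP replicate 2 it was 2.98 (limma adjusted p = 0.000843).

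PLEC (ENSG00000178209, chromosome 8, minus strand), which encodes plectin, was the most discordant. It had 10986, 86046 and 46771 normalised counts in inputs against 154157, 4936 and 169435 in ORC1 IPs. ORC1 IPs 1 and 3 were the highest 2 libraries and ORC1 IP 2 was the lowest of all 6. Folds were 14.03 in replicate 1, 0.0574 in replicate 2 and 3.62 in replicate 3. The mean log2 fold change was 0.51, with a 95% interval from -2.61 to 3.64 (limma adjusted p = 0.875). Without ORC1 IP replicate 2, PLEC reached 2.19 (limma adjusted p = 0.0444). Its direction also rested on ORC1 IPs 1 and 3 and on input 1, since the log2 fold change was -0.29, -0.36 and -0.33 without each of them.

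UTRN (ENSG00000152818, chromosome 6, 144285335 to 144853034, plus strand) was the linker mRNA called higher. It had 885, 528 and 628 normalised counts in inputs against 3481, 1290.1 and 9302 in ORC1 IPs. No ORC1 IP overlapped the inputs, and replicate 2 kept a fold of 2.44 beside 3.93 and 14.8 in replicates 1 and 3. UTRN rose with a log2 fold change of 2.38 ± 0.59 (SE, n = 3; limma adjusted p = 0.0467). The call was close to the threshold and was lost without any single library other than ORC1 IP replicate 2 (limma adjusted p from 0.0571 without ORC1 IP replicate 1 to 0.257 without input replicate 3). The log2 fold change was 3.10 without ORC1 IP replicate 2 (limma adjusted p = 0.000758).

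SPTAN1 (ENSG00000197694, chromosome 9, 128552558 to 128633662, plus strand) encodes the non-erythroid alpha spectrin. It had 2599.9, 8912 and 7011 normalised counts in inputs against 28943, 3588 and 38119.5 in ORC1 IPs. SPTBN1 (ENSG00000115306, chromosome 2, 54456317 to 54671446, plus strand) encodes its beta partner and had 4492, 17807 and 11581 in inputs against 76559, 3746 and 65949 in ORC1 IPs. In both, ORC1 IPs 1 and 3 stood above all inputs and ORC1 IP 2 was within or below them. Log2 fold changes were 1.54 ± 0.86 for SPTAN1 and 1.45 ± 1.08 for SPTBN1 (SE, n = 3; limma adjusted p = 0.328 and 0.470), and became 2.61 and 2.87 without ORC1 IP replicate 2 (limma adjusted p = 0.00307 and 0.00272). In GENCODE v44, the antisense RNA SPTBN1-AS2 overlaps 3.39% of the exonic bases of SPTBN1. The kit was stranded, but no source used here says whether counting took account of strand.

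AHNAK (ENSG00000124942, chromosome 11, 62433542 to 62556235, minus strand) was the most abundant of all genes in ORC1 IP replicate 3 and ranked 42nd in ORC1 IP replicate 2. It had 10983, 65312 and 34059.9 normalised counts in inputs against 185243, 15225 and 330201 in ORC1 IPs. Libraries of one group differed by up to 21.7-fold between ORC1 IPs 3 and 2, and inputs 2 and 1 by 5.95-fold. With this spread the log2 fold change of 1.75 ± 1.39 (SE, n = 3) had a 95% interval from -1.26 to 4.76 (limma adjusted p = 0.501), and it reached 3.09 without ORC1 IP replicate 2 (limma adjusted p = 0.00666).

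FLNA (ENSG00000196924, chromosome X, 154348524 to 154374634, minus strand) was the exception. It had 25942, 104496 and 60519.9 normalised counts in inputs against 95740.4, 8885 and 113578 in ORC1 IPs. The groups overlapped, with input 2 above ORC1 IP 1. FLNA had a log2 fold change of -0.25 with a 95% interval from -3.04 to 2.53 (limma adjusted p = 0.934), and of 0.93 without ORC1 IP replicate 2 (limma adjusted p = 0.299). This interval leaves room for a large change in either direction.

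**Figure D2:**
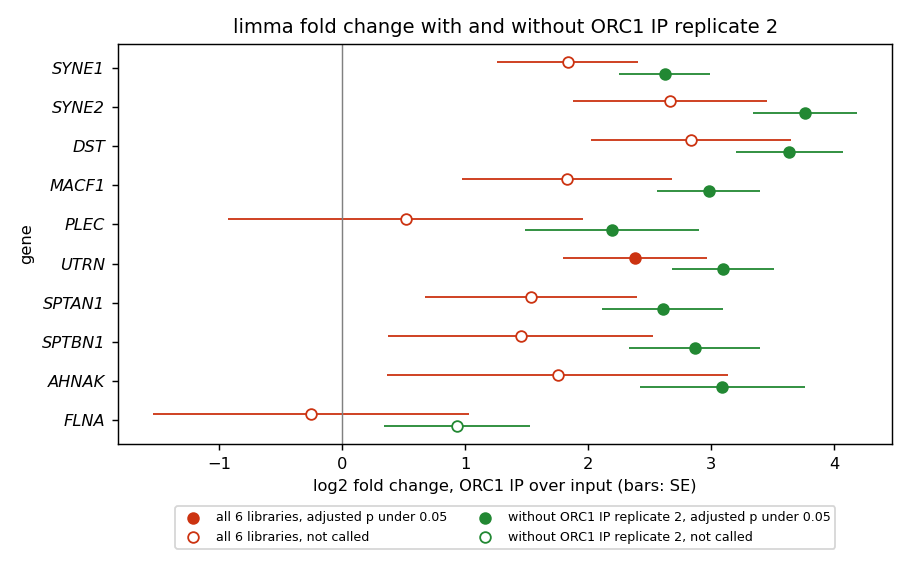
Log2 fold change of ORC1 IP over input for each linker mRNA (points) with its SE (bars), from limma with all 6 libraries (red) and without ORC1 IP replicate 2 (green). Filled points passed an adjusted p under 0.05, which only UTRN did with all libraries and all but FLNA did without that library.

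The 10 mRNAs together took a variable part of each library. Their share of normalised counts was 0.369%, 1.39% and 0.890% in inputs 1, 2 and 3, against 2.16%, 0.397% and 3.37% in ORC1 IPs 1, 2 and 3. ORC1 IP 2 was close to input 1 in this respect, and was below inputs 2 and 3. AHNAK and PLEC were the largest parts of ORC1 IP 3, at 1.23% and 0.631% of counts.

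ORC1 IP replicate 2 was the lowest ORC1 IP for 10 of 10 mRNAs, by 2.70-fold for UTRN to 31.2-fold for PLEC against ORC1 IP 1. The share of all genes that were lowest in a given library is not given here. Input replicate 1 was the lowest input for 7 of the 10, and input 2 exceeded it by 7.83-fold for PLEC, 5.95-fold for AHNAK and 4.03-fold for FLNA, but not for UTRN, where the ratio was 0.596. Without input replicate 1 the median log2 fold change of the 10 mRNAs was 1.32, and without ORC1 IP replicate 3 it was 0.98.

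**Figure D3:**
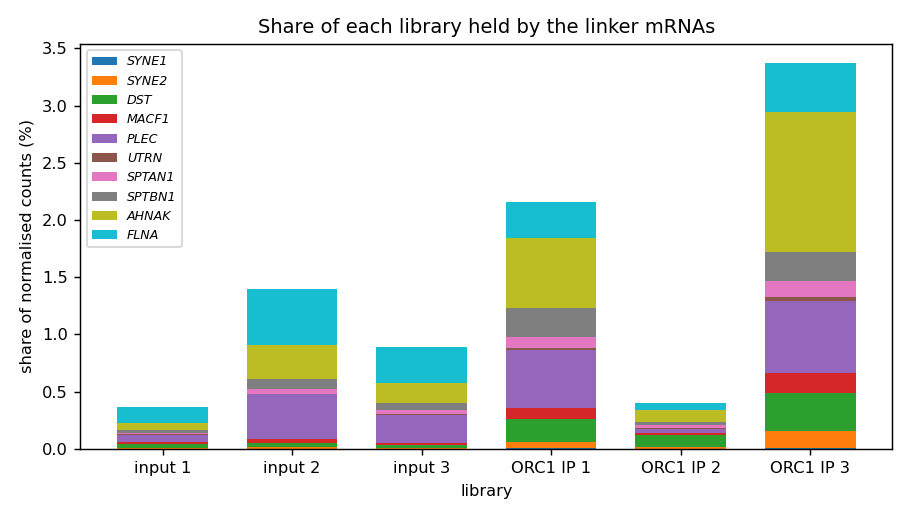
Share of normalised counts (%) held by each of the 10 linker mRNAs, stacked, in the 3 inputs and 3 ORC1 IPs. The summed share ranged from 0.369% to 1.39% in inputs, and was 0.397% in ORC1 IP 2 against 2.16% and 3.37% in ORC1 IPs 1 and 3.

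Levels between genes were compared per kilobase of the longest annotated transcript, which need not be the form made by these cells. In inputs, FLNA was highest at 7453 ± 4610 normalised counts per kilobase (SD, n = 3), followed by PLEC (3143 ± 2462), AHNAK (1961 ± 1453), SPTBN1 (1104 ± 652) and SPTAN1 (750 ± 394). DST (257 ± 94.0), MACF1 (194 ± 66.9), SYNE2 (85.3 ± 21.5), UTRN (52.7 ± 14.3) and SYNE1 (7.28 ± 0.791) were lower. The ranges of the 3 inputs overlapped between neighbours in this order, except between MACF1 and SYNE2 and between UTRN and SYNE1. In ORC1 IPs the first 3 places were taken by AHNAK (9429 ± 8403), FLNA (8516 ± 6558) and PLEC (7181 ± 5960), with overlapping ranges.

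Relatives differed in their ratio per kilobase. SYNE2 exceeded SYNE1 by 8.21-, 13.4- and 13.8-fold in inputs 1, 2 and 3, and by 22.6-, 13.4- and 28.4-fold in ORC1 IPs. The ratio in ORC1 IP 2 was within the inputs, and in ORC1 IPs 1 and 3 it was above them. The ratio of DST to MACF1 was 1.38 ± 0.544 in inputs against 2.81 ± 1.28 in ORC1 IPs (SD, n = 3), where ORC1 IP 2 had the highest ratio, 4.28. SPTBN1 and SPTAN1, whose products assemble with each other, had a mean ratio of 1.44 ± 0.146 in inputs against 1.45 ± 0.646 in ORC1 IPs (SD, n = 3).

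The 10 mRNAs were then ordered by GC content and gene length. They had been chosen as mRNAs of giant proteins, so length is not independent of their choice. The longest transcripts ranged from 8229 nt for SPTAN1 to 27708 nt for SYNE1, and GC content from 41.6% in DST to 67.0% in PLEC. Members with less GC had higher fold changes, with a Spearman rho across the 10 mRNAs of -0.96 for the log2 fold change, -0.99 in replicate 3, -0.88 in replicate 2 and 0.18 in replicate 1. Gene length gave a rho of 0.87 with the log2 fold change, and of -0.26, 0.93 and 0.85 in replicates 1, 2 and 3. GC content and gene length were themselves tied in these 10 genes (rho -0.84), and the points share the same 6 libraries, so the relations cannot be told apart.

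These orders were compared with those of 1172 tested protein-coding genes whose longest transcript had at least 8229 nt, the 10 mRNAs included. Across these long mRNAs the rho of the log2 fold change with GC content was 0.02, and it was 0.34, -0.30 and -0.05 in replicates 1, 2 and 3. With gene length it was 0.30. Libraries of one group also differed along GC content: the log2 difference of input 1 from inputs 2 and 3 gave a rho with GC of -0.52 across the long mRNAs and -0.81 across the 10. For ORC1 IP 2 against ORC1 IPs 1 and 3 the values were -0.35 and -0.65. The part of base composition in the low counts of ORC1 IP 2 was not tested.

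The median log2 fold change over this class was 0.60, 79.7% of its values were positive, and 7.25% of them were called higher. Without ORC1 IP replicate 2, 37.7% of the class were called higher and its median was 0.83. In this class DST lay at the 99.1th percentile of log2 fold change, SYNE2 at 98.0, UTRN at 96.9 and SYNE1, MACF1 and AHNAK between 89.2 and 91.1, whereas PLEC lay at 45.7 and FLNA at 11.3. In replicate 1, with the labelled input, 7 of the 10 lay above a percentile of 98 among long mRNAs, with MACF1 the lowest of these at 98.2. In replicate 2, with the labelled input, PLEC had the lowest value of all 1172. Input 1 exceeded ORC1 IP 2 by 2.23-fold for PLEC, and input 2 by 17.4-fold. When log2 values of each library were corrected for transcript GC content and length, the median log2 fold change of the 10 fell from 1.79 to 1.04 and 0 were called in limma, beside 0.56% of all genes called higher (0% with the replicate block). Without ORC1 IP replicate 2 the corrected values gave 7 of the 10 as higher, beside 10.1% of all genes, with AHNAK (limma adjusted p = 0.0529), PLEC (0.199) and FLNA (0.596) not called.

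**Figure D4:**
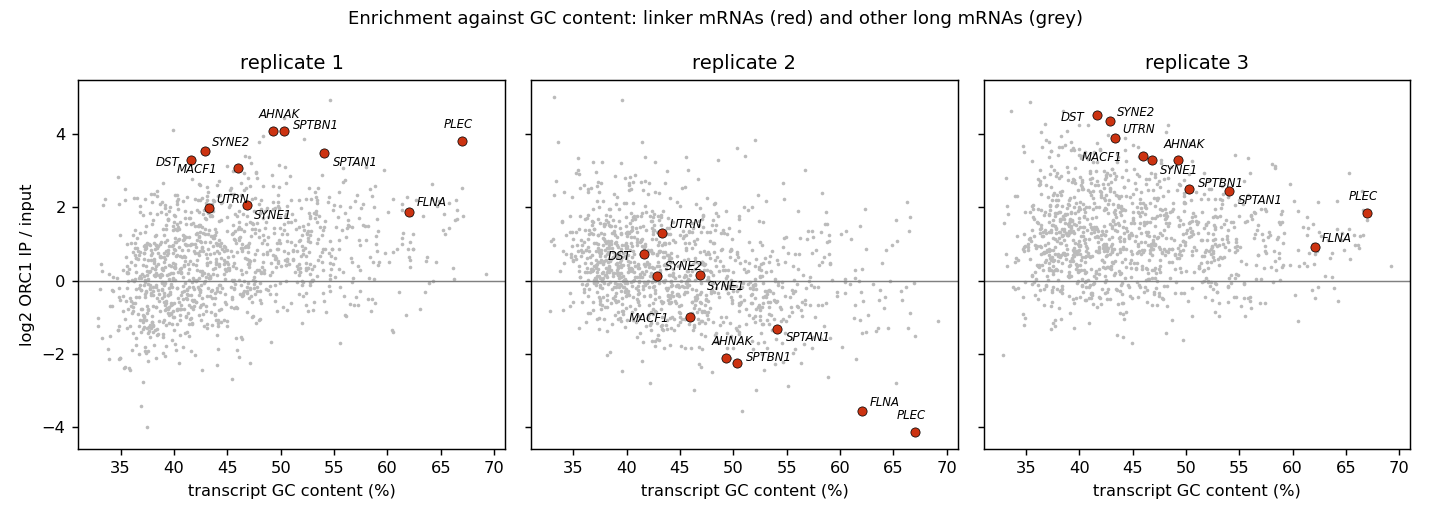
Log2 ORC1 IP over input against transcript GC content (%) in replicates 1, 2 and 3, for the 10 linker mRNAs (red) and the other protein-coding genes with transcripts of at least 8229 nt (grey). In replicates 1 and 3 all 10 lay above 0, and in replicate 2 the members with the most GC lay lowest, PLEC at -4.12.

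Tandem GAA runs of 3 or more units were found in the longest transcripts of SYNE2 (4 units), DST, UTRN and SYNE1 (3 each), the 4 mRNAs whose groups did not overlap. The other 6 had runs of 2 units, except AHNAK, which had no GAAGAA in 18761 nt. SYNE2, DST, UTRN and SYNE1 were also the longest genes of the set, from 464535 to 567700 bases, with MACF1 next at 405862. DST, SYNE2 and UTRN had the least GC, at 41.6%, 42.9% and 43.3%, whereas SYNE1 (46.8%) had more than MACF1 (46.0%). In these mRNAs the run is therefore tied to gene length and, except in SYNE1, to low GC content. Among all genes tested with a transcript match 12.9% held a run of 3 units or more, and among long mRNAs 30.5% did. For long mRNAs with such a run the median log2 fold change was 0.98 (358 genes, of which 38 were called higher), against 0.45 without (814 genes, 47 called higher). The former were slightly longer, with a median of 10604.5 nt against 9911 nt. A match is a description of these letters, and the part of the run in the enrichment was not tested.

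Other genes of the same families and pathways were examined as lists chosen by symbol. Of 16 relatives (other plakins, nesprins, spectrins, filamins, AHNAK2 and dystrophin relatives), 14 were tested and 12 had positive log2 fold changes, with a median of 0.70. In limma 1 was called higher and none lower. It was DRP2, a dystrophin-related gene, with 22.2, 12.6 and 10.53 normalised counts in inputs against 56.4, 106 and 67.8 in ORC1 IPs. DRP2 rose by a log2 fold change of 2.29 ± 0.52 (SE, n = 3; limma adjusted p = 0.0344), and unlike the 10 linker mRNAs it was highest in ORC1 IP 2. Its input counts rest on few reads, as 1 read was worth 1.06, 1.58 and 1.17 normalised counts in inputs 1, 2 and 3. Without ORC1 IP replicate 2, 7 relatives were called higher, beside 11.9% of all genes and 37.7% of the long mRNAs. The median of the relatives was then 1.78. Among the 7 called was DSP, which encodes desmoplakin, a linker of keratin filaments to desmosomes, and which is named after its values were seen. It had 7462, 8952 and 5831 normalised counts in inputs against 56984, 6119 and 56947 in ORC1 IPs. With all 6 libraries DSP was not called (log2 fold change 1.89, limma adjusted p = 0.228). Leaving out ORC1 IP 2, its lowest ORC1 IP, raised the log2 fold change to 2.96 (limma adjusted p = 0.000758).

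Of 32 partners of the linker proteins (nuclear lamins and SUN proteins, ankyrins, adducins, syntrophins, talin, vinculin, alpha-actinins and others), 0 were called in either direction in limma, 1 had an unadjusted p under 0.05, and edgeR and DESeq2 also called 0. Their median log2 fold change was -0.02. Values ran from -0.62 for KRT18, a keratin of simple epithelia, to 0.98 for ANK2, an ankyrin that binds spectrin. Without ORC1 IP replicate 2, 6 partners were called higher (18.8%, beside 11.9% of all genes) and their median was 0.50. ANK2 was among them (log2 fold change 1.32; limma adjusted p = 0.0257).

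A list of 20 short cytoskeletal mRNAs (actins, tubulins, myosin light chains, profilin, cofilin and others) had a negative median log2 fold change, -0.76. Of 20 values 5 were positive, and 0 were called in limma, with 3 lower at an unadjusted p under 0.05. DESeq2 called 1 lower and edgeR 0. The lowest was TUBA1B, an alpha-tubulin, with 5103, 8972 and 7754 normalised counts in inputs against 2235, 1778 and 3273 in ORC1 IPs (log2 fold change -1.59 ± 0.46, SE, n = 3; limma adjusted p = 0.0702). Without ORC1 IP replicate 2 the median of the list was -0.40 and 2 were called lower, TUBA1B (limma adjusted p = 0.0204) and TMSB4X, a thymosin (0.0396), the latter named after its values were seen. Actin and tubulin genes have near-identical copies that can share reads, so their single values are uncertain. The highest was TPM4, a tropomyosin, at 0.86 (limma adjusted p = 0.320). By longest transcript some of the list were not short, with TPM3 at 7064 nt, CAPZB at 6180 nt and TPM4 at 4894 nt. The median over all genes tested was 3283 nt. Median transcript length was 2130 nt in this list, 5077 nt in the partners, 9635 nt in the relatives and 17005 nt in the linker mRNAs. The part of length in the differences between lists was not tested.

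**Figure D5:**
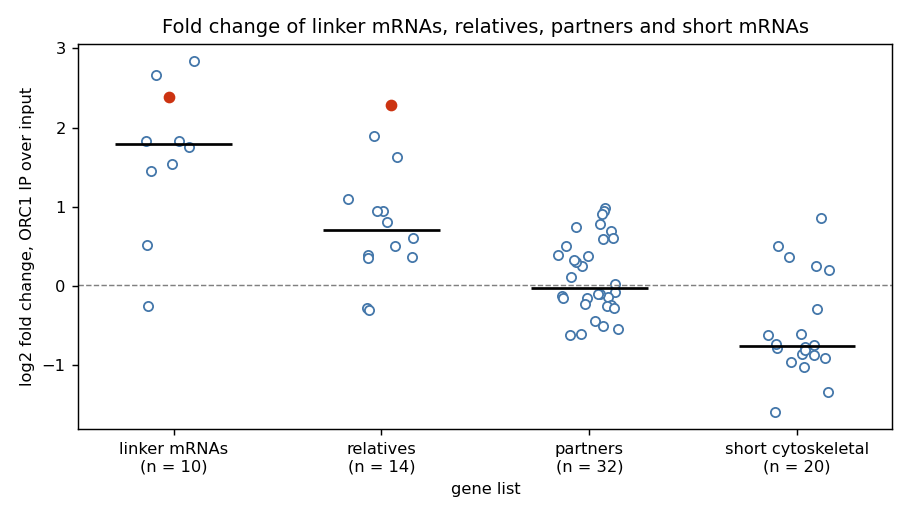
Log2 fold change of ORC1 IP over input for the 10 linker mRNAs, 14 relatives, 32 partners and 20 short cytoskeletal mRNAs, with filled points for an adjusted p under 0.05 (limma), black lines for list medians and a dashed line for the median of all genes tested. The medians plotted, from all 6 libraries, were 1.79, 0.70, -0.02 and -0.76, and without ORC1 IP replicate 2 they were 2.92, 1.78, 0.50 and -0.40.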

How the data were processed

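Native RIP-seq libraries were made from nuclear lysate of HCT116 cells that was dounced, sonicated and pre-cleared and the RNA was DNase-treated before library preparation. After trimming (Trimmomatic) and STAR alignment, the authors used featureCounts on Ensembl genes of hg19 (GRCh37) and divided gene counts by DESeq2 size factors. The deposited values are this signal per library, here called normalised counts. They were whole multiples of 1 read in 100% of values (tolerance 0.001), and whole reads were recovered. The authors' deposited columns of log2 fold changes, a Wald score, p-values and a mean signal were not used.

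Genes with a mean normalised count of 10 or more (16513) were kept, and log2(normalised count + 1) was tested with limma 3.58.1 (intensity trend, no block), 3 ORC1 IPs against 3 inputs. Fold changes on this scale understate changes of low genes. Alternatives included edgeR 4.0.16 and DESeq2 1.42.0 on recovered reads, other scalings, filters and pseudocounts, a GC and length correction by natural splines, the replicate block, and leaving out each library. Scripts were tested on simulated data. GENCODE v44 on GRCh38 gave transcript features and coordinates for 97.3% of genes tested, by Ensembl gene identifier, and were never mixed with hg19 coordinates.

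The labels give an input and an ORC1 IP the same RIP replicate number. After subtracting group means, same-numbered libraries correlated at -0.32, -0.24 and 0.21 across genes for replicates 1, 2 and 3, whereas input 2 and ORC1 IP 1 correlated at 0.50 and input 1 and ORC1 IP 2 at 0.22. Whether the numbers match inputs to ORC1 IPs correctly was not settled. Values per replicate rest on these numbers. The 10 mRNAs, the lists and the rules for naming genes were chosen with earlier results of these data known. All 10 mRNAs were named, and of each other list the genes called, or else the highest and the lowest. Fits without ORC1 IP replicate 2 in edgeR or after the GC and length correction were added after seeing the data. Sequence windows of the other linker mRNAs are not reported here.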

Additional observations from a re-analysis of the deposited data

How the results depend on the processing

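With all 6 libraries 1 of the 10 linker mRNAs was called higher. The count of mRNAs called higher was 0 with a filter at a mean of 50, 2 with upper quartile scaling, 3 in edgeR, 8 in DESeq2, 2 in edgeR with the replicate block, and 0 after the GC and length correction with or without the replicate block. Leaving out 1 library gave 0 to 9, the 9 without ORC1 IP replicate 2, and in fits added later 8 (edgeR) and 7 (GC and length correction) without it. The replicate block in limma kept 1 called (UTRN) and changed no other call of the 10. FLNA turned positive in edgeR (0.17), DESeq2 (0.15), edgeR with the replicate block (0.033), without input replicate 2 (0.21) and without ORC1 IP replicate 2 (0.93, 0.65 in edgeR and 0.44 after the correction). PLEC turned negative after the correction (-0.078, also with the block) and without input replicate 1 (-0.33), ORC1 IP replicate 1 (-0.29) or ORC1 IP replicate 3 (-0.36). Leaving out 1 library moved FLNA from -0.91 to 0.93 and PLEC from -0.36 to 2.19. The other 8 kept a positive sign under every alternative run. UTRN lost its call with a filter at 50 (limma adjusted p = 0.0504), with total count scaling (0.0579) and after the correction (0.0959).

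Over all genes, calls higher and lower were 376 and 234, 87 and 96 with total count scaling, 1266 and 718 in DESeq2, 90 and 38 after the correction, 0 and 4 after it with the block, and 6 to 1965 and 23 to 1053 when leaving out 1 library. Without ORC1 IP replicate 2 they were 1913 and 1176 in edgeR and 1624 and 1069 after the correction. Total count scaling moved the median of all genes to -0.19. Relatives called higher were 1, and 0 with a filter at 50, total count scaling, edgeR with the block and the correction (with or without the block), 3 in DESeq2, 0 to 7 when leaving out 1 library, and without ORC1 IP replicate 2 were 8 (edgeR) and 4 (correction). The filter at 50 removed DRP2, which was then not tested. Partners called higher numbered 0 to 6 when leaving out 1 library, and without ORC1 IP replicate 2 they were 4 in edgeR and 4 after the correction, which also gave 1 lower. Short cytoskeletal mRNAs called lower were 1 with total count or upper quartile scaling and in DESeq2, 0 to 2 when leaving out 1 library, and 2 (edgeR) and 1 (correction) without ORC1 IP replicate 2. The cause of these moves was not tested. The fewest reads were 138, for SYNE1 in input 2, so counting error bears most on SYNE1.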
